A study of Mus musculus with 22 samples.

Results

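The microglia genes described here are 9 genes chosen by symbol from the 55341 genes in the count tables: Cx3cr1, P2ry12, Tmem119, C1qa, C1qb, C1qc, Csf1r, Trem2 and Ctss. The list of names set no threshold on a measured value. All 9 were found in the tables, and each was followed in the whole tissue lysate and in the ribosome pulldown of the same animals.

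The study isolated ribosome-bound mRNA from D1 neurons of mouse striatum, the dopamine-receptor-bearing projection neurons of the direct pathway. These neurons carry an EGFP-tagged ribosomal protein, Rpl10a, in Drd1-expressing cells, so an anti-GFP pulldown (IP) holds mRNA of those cells and the lysate before the pulldown (input) holds RNA of the whole tissue. Each of 6 wild-type animals (numbered 1, 4, 12, 13, 14 and 20) and 5 FMRP mutants (2, 3, 9, 10 and 11) gave 1 input and 1 IP library, 22 libraries in all. Controls and mutants share the tagged ribosome, and age, sex and strain are not given in the sources used here. The comparison between genotypes asks whether loss of FMRP, an RNA-binding regulator of translation, changes RNA levels, and the comparison of IP with input shows which RNA the pulldown keeps. By this design microglia are not among the cells that the tag marks.

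Microglia are the resident macrophages of the brain. They sense neurons through CX3CR1, the receptor for the neuronal chemokine fractalkine (Cx3cl1), and sense nucleotides through P2RY12. They depend on CSF1R, the receptor for Csf1 and Il34, for survival. TREM2 signals through the adaptor Tyrobp and the kinase Syk. C1q, built from the A, B and C chains, starts the classical complement pathway, which tags synapses for removal in development. Ctss encodes cathepsin S, a lysosomal cysteine protease, and Tmem119 a membrane protein widely used to tell microglia from other macrophages.

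The promoters of C1qb, C1qc and Ctss are shown because each held both motifs searched, forms of the purine-rich core of sites bound by PU.1, the factor encoded by Spi1 that defines myeloid cells. The set of RefSeq promoters used here (GRCm38.p6) covered 6 of the 9 members, from 250 bases before to 50 bases after the transcript start. It had no entry for Tmem119, C1qa and Csf1r, which were not searched. Each sequence is written 5' to 3' on the gene's own strand, and capitals mark a match to GAGGAA or GGAAGT on either strand, where matches may overlap.
C1qb, chr4:136886151-136886450, minus strand: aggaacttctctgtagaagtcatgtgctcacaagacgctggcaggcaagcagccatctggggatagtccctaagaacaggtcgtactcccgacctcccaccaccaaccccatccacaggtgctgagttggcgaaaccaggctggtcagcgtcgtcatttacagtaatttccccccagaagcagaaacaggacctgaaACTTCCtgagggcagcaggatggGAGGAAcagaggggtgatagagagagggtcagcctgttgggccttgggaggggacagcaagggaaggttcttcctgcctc
C1qc, chr4:136892865-136893164, minus strand: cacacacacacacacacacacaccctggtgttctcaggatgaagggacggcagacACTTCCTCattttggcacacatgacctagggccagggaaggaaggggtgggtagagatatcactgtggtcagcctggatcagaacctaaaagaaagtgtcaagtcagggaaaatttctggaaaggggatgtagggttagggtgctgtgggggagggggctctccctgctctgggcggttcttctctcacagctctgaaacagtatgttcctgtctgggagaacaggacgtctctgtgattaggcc
Ctss, chr3:95526536-95526835, plus strand: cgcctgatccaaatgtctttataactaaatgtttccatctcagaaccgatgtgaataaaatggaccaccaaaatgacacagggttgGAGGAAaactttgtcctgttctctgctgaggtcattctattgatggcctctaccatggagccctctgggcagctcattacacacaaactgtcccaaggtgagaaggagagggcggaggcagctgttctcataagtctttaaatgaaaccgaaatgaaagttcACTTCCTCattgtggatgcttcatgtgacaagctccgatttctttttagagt
In C1qb the matches are separate, and in C1qc and Ctss the matches to GAGGAA and GGAAGT overlap in ACTTCCTC. GAGGAA was present in 4 of the 6 promoters (C1qb, C1qc, Trem2 and Ctss) against 28.3% of 32851 listed promoters, and GGAAGT in 4 of 6 (P2ry12, C1qb, C1qc and Ctss) against 23.8%. Either motif was present in 5 of 6, against 43.4% of all promoters. The Cx3cr1 promoter held neither. The joined form GAGGAAGT, searched for after the sequences had been seen, was in the C1qc and Ctss promoters and in 3.2% of all. These are letter matches, not measured binding.

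In the whole striatum all 9 genes were measured well, and in the pulldown they were nearly gone. Input libraries held 2209 to 5570 reads on the 9 genes together, 39212 in all, out of 25164548 to 43276230 counts per library. IP libraries held 30 to 295 such reads, 1232 in all, although their totals ran from 9375611 to 82376192. Levels are given as CPM, read counts scaled to a common library size over all 22 libraries, and 3 reads, the count that a reading of 0 still allows, correspond to 0.0315 to 0.271 CPM in an IP library. The targeted gene, Fmr1, was 63.7 ± 4.72 CPM in wild-type and 13.2 ± 1.60 CPM in mutant inputs, and 86.3 ± 12.4 and 9.99 ± 1.29 CPM in IP (SD, n = 6 and 5). Mitochondrial rRNA took 25.1 to 53.2% of input counts and 0.420 to 0.904% of IP counts. Inputs of animals 1, 3, 9 and 12 carried 74.2, 133.5, 372.8 and 251.5 CPM of cortical excitatory neuron markers, against at most 10.1 CPM in the others, and results without them are given where they change direction.

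The microglia genes lie on 6 chromosomes of GRCm38, and 3 (Cx3cr1, P2ry12 and Csf1r) share exon bases with a neighbour on the opposite strand. The kit does not keep strand, so reads from shared bases cannot be told apart. C1qa (chr4:136895917-136898803), C1qc (chr4:136889804-136893065) and C1qb (chr4:136880129-136886187) form 1 cluster, all on the minus strand. P2ry12 (chr3:59216272-59262871) sits whole inside Med12l, but only 9 of its 2546 exon bases overlap a Med12l exon. Csf1r (chr18:61100598-61132149) shares 873 of its 5774 exon bases, 15.1%, with Hmgxb3. The other members are Cx3cr1 (chr9:119901616-120069879), Tmem119 (chr5:113793729-113800516), Trem2 (chr17:48346401-48354147) and Ctss (chr3:95526786-95556403). The annotated span of Cx3cr1 also contains other genes, while 1.73% of its exon bases are shared, with Gm33858.

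The receptors that sense the surroundings were present in every input library. P2ry12 ran from 20.97 to 33.1 CPM (median 25.1) in wild types, and stood at 29.8, 23.3, 26.6, 28.8 and 38.0 CPM in mutants 2, 3, 9, 10 and 11. Mutant 11 was above every wild type and the other 4 mutants lay inside the wild-type range. Cx3cr1 ran from 8.17 to 18.3 CPM (median 10.6) in wild types, and was 8.21, 11.4, 10.1, 9.87 and 11.4 CPM in the mutants in the same order. All 5 mutants were inside the wild-type range, whose highest value came from animal 13.

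Csf1r, the growth factor receptor, ran from 15.3 to 35.8 CPM (median 22.9) in wild types and was 21.3, 26.2, 21.0, 29.6 and 28.8 CPM in mutants 2, 3, 9, 10 and 11. The mutants again lay inside the wild-type range. Trem2, a lipid-sensing receptor of phagocytes, was at 1.29 to 4.11 CPM (median 2.94) in wild types and 4.59, 2.48, 3.68, 4.94 and 4.17 CPM in mutants. Mutants 2, 10 and 11 were above the highest wild type. Tmem119 ran from 4.06 to 7.48 CPM (median 5.83) in wild types and was 4.62, 4.49, 4.75, 6.47 and 3.85 CPM in mutants, where animal 11 alone lay below the wild types.

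The C1q chains and the protease showed the same overlap. C1qa ran from 2.66 to 5.36 CPM (median 4.19) in wild types and was 3.65, 3.09, 3.84, 4.76 and 4.60 CPM in mutants 2, 3, 9, 10 and 11. C1qb ran from 12.3 to 23.3 CPM (median 17.5) in wild types and was 16.6, 17.8, 12.8, 15.8 and 30.0 CPM in mutants, where animal 11 stood apart. C1qc ran from 8.17 to 14.8 CPM (median 10.7) in wild types and was 8.21, 8.09, 7.60, 9.35 and 12.1 CPM in mutants. The lowest 2 C1qc values were those of mutants 9 and 3, and the other 3 mutants were within the wild-type range. Ctss ran from 15.7 to 29.0 CPM (median 25.0) in wild types and was 21.5, 19.0, 15.7, 27.0 and 29.3 CPM in mutants, all but animal 11 inside the wild-type range.

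**Figure D1:**
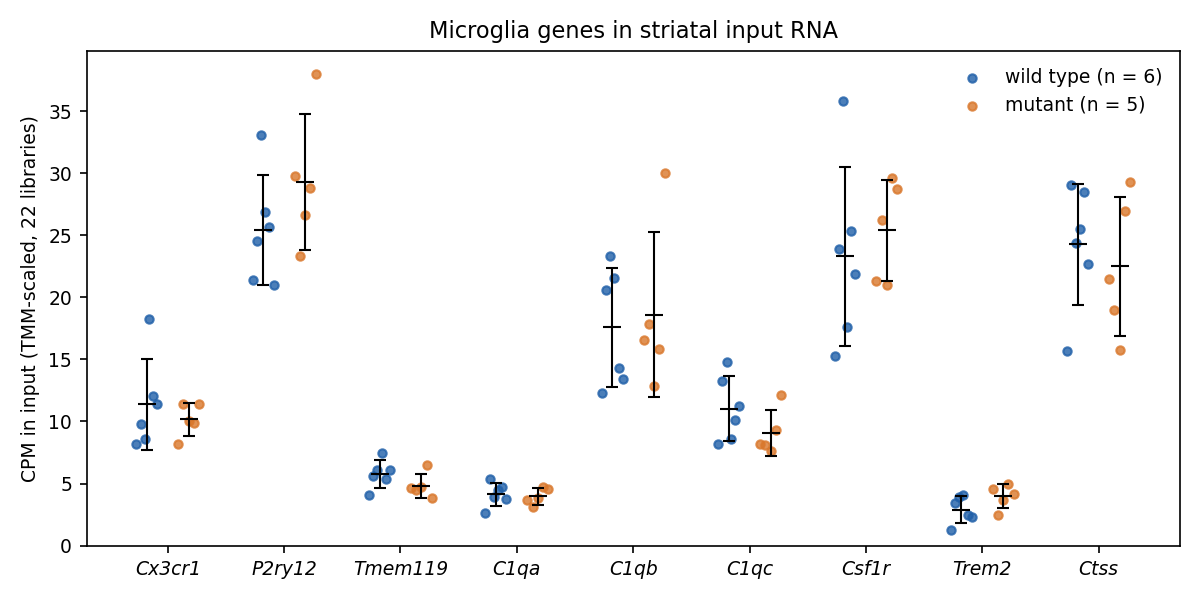
Level of each microglia gene in every input library, in CPM on a linear axis, for 6 wild-type and 5 mutant animals. Points are libraries and bars are the mean ± SD; the groups overlap for every gene.

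Adjusted for exon length, the 9 genes differed widely in level within the tissue. Exon length here is that of all annotated exons of a gene merged, 4946 bases for Trem2 and 1931 for C1qc. It can exceed the length of any single transcript. The order and the ratios below depend on this choice, and levels of single transcripts were not computed. In wild-type input the order, in CPM per kilobase of exon, was Ctss at 17.9 ± 3.59, C1qb at 16.2 ± 4.39, P2ry12 at 9.99 ± 1.74, C1qc at 5.71 ± 1.36, Csf1r at 4.03 ± 1.25, C1qa at 3.98 ± 0.894, Cx3cr1 at 2.52 ± 0.821, Tmem119 at 2.50 ± 0.482 and Trem2 at 0.589 ± 0.219 (SD, n = 6). Neighbours in this order had overlapping ranges except P2ry12 and C1qc, and Tmem119 and Trem2. In mutants C1qb (17.1) and Ctss (16.6) changed places, and C1qa and Cx3cr1 also had separate ranges. The 3 chains of C1q enter the protein in equal number, yet per kilobase C1qb was 2.92 to 6.24 times C1qa (median 4.35) and 2.11 to 4.47 times C1qc over the 11 inputs. C1qc was 1.04 to 2.03 times C1qa (median 1.33).

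Across the 11 input libraries the microglia genes tended to vary together, unevenly. Of 36 pairs, 32 had a positive Pearson r in log2 CPM, with a median of 0.46 and a range from -0.165 (Cx3cr1 with Csf1r) to 0.85 (C1qa with Ctss). Ctss followed the mean of the other 8 most closely (r = 0.832) and Cx3cr1 least (r = 0.219). The libraries share preparation and depth, and the summed level of the members had r = 0.581 with total counts and 0.567 with the mitochondrial rRNA share. The 5 genes outside the lists whose input pattern was most like the members' mean were Rpp38 (r = 0.955), mt-Tc (0.925), Gm13341 (0.917), Emc10 (0.905) and Gm28455 (0.898), of 16284 ranked. These correlations describe 11 libraries and carry no test.

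Loss of FMRP left no called change in any microglia gene in whole striatum. None of the 9 passed an adjusted p of 0.05 (edgeR quasi-likelihood test, adjusted over all genes), against 0.0183% of all genes, 3 of 16429. None had an unadjusted p below 0.05, and DESeq2 called 0 of the 9 as well. The log2 fold change of mutant over wild type was positive for 4 genes and negative for 5, with a median of -0.06 against 0.00 over all genes. Trem2 had the highest at 0.44 ± 0.30 (SE) and C1qc the lowest at -0.29 ± 0.19 (edgeR adjusted p = 0.821). P2ry12 was at 0.20 ± 0.14, Csf1r at 0.12 ± 0.18 and C1qb at 0.08 ± 0.22. C1qa was at -0.06 ± 0.23, Ctss at -0.12 ± 0.17, Cx3cr1 at -0.16 ± 0.19 and Tmem119 at -0.27 ± 0.21. These values do not show that the genotypes are alike, since differences within these errors were not detectable. The summed level of the 9 genes was 125.8 ± 22.3 CPM in wild types and 127.9 ± 22.2 CPM in mutants (SD, n = 6 and 5). In bulk tissue, fewer microglia and less RNA per cell cannot be told apart. In the authors' deposited table, the adjusted p of the 9 genes in input ran from 0.794 to 0.982.

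Every microglia gene fell in the pulldown, in both genotypes. All 9 of 9 were called lower in IP than in input in wild types and in mutants, where 27.8% and 26.4% of all 17311 genes tested were called lower (edgeR adjusted p below 0.05). Calls in either direction took in 49.6% and 47.3% of genes, and 21.8% and 20.9% were called higher. Tmem119, C1qa, C1qc and Trem2 passed the filter on low counts only through their input libraries, so for them the direction was fixed by that filter. The other 5 (Cx3cr1, P2ry12, C1qb, Csf1r and Ctss) also passed it in IP alone. Cx3cr1 did so through wild-type IP libraries only, so in mutants its direction was fixed as well. The same limit holds for any gene of the lists named below that passed only through input, and the number that also passed in IP is given with each list. In wild types the log2 fold change was lowest for Ctss at -6.03 ± 0.39 (SE) and highest for Cx3cr1 at -4.01 ± 0.47. In mutants it was lowest for Trem2 at -7.44 ± 0.72 and highest for Csf1r at -5.02 ± 0.37. The edgeR adjusted p lay between 1.02e-15 and 1.53e-07 in wild types and between 6.77e-15 and 1.1e-08 in mutants. The members' median was -5.12 in wild types and -5.72 in mutants, against -0.11 and -0.11 over all genes. All 9 genes were lower in IP in 11 of 11 animals.

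The share of a microglia gene is here its CPM in IP as a percentage of its CPM in input, mostly a few percent or less. It compares relative levels in 2 kinds of library and does not give the fraction of transcripts recovered. The pooled share divides summed IP reads by summed IP library sizes, and that by the same ratio in input. Deep libraries so weigh more, wild-type animal 1 most with 82376192 IP counts, and animals are not paired. Pooled over animals, the wild-type share of the 9 genes together was 2.78% (95% exact Poisson interval 2.59 to 2.98%, counting error only), and the mutant share was 2.14% (1.95 to 2.35%). Against the input of the same animal, the share of the sum was 2.17 to 3.54% (median 3.17%) in wild types. In mutants it was 1.14 to 4.10% (median 2.32%), so the groups overlapped. For P2ry12 the pooled share was 3.50% (3.03 to 4.01%) in wild types and 2.86% (2.39 to 3.38%) in mutants. For Ctss it was 1.39% (1.09 to 1.74%) and 2.07% (1.63 to 2.60%). The highest single value was Trem2 in wild-type animal 1, at 14.7%, from 18 IP reads and 32 input reads.

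**Figure D2:**
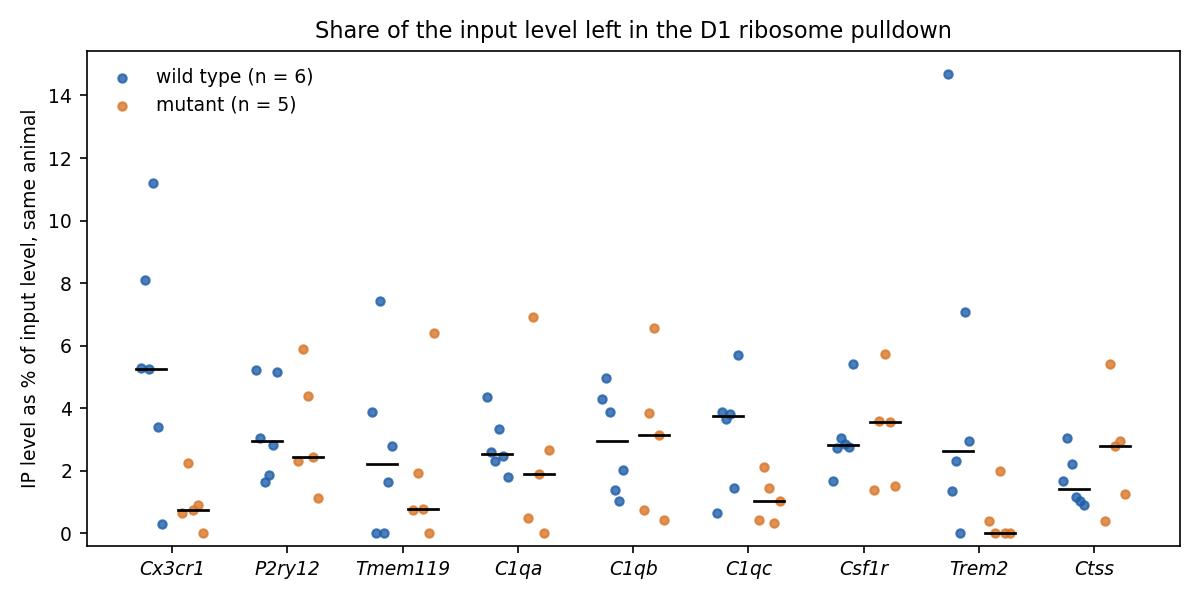
IP level of each microglia gene as a percentage of the input of the same animal. Points are animals and bars are group medians; every point is below 100%, and the highest is Trem2 in wild-type animal 1 at 14.7%.

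The few reads left in IP were spread unevenly over animals. Cx3cr1 gave 41, 17, 5, 69, 14 and 1 IP reads in wild-type animals 1, 4, 12, 13, 14 and 20 (0.431, 0.792, 0.452, 2.05, 0.407 and 0.0338 CPM). In mutants 2, 3, 9, 10 and 11 it gave 3, 6, 2, 3 and 0 reads (0.0519, 0.257, 0.0732, 0.0880 and 0 CPM). Wild-type animal 20 lies within the mutant range and the other 5 wild types lie above it. C1qc gave 5, 11, 6, 11, 5 and 19 reads in wild types and 2, 4, 3, 1 and 2 reads in mutants. As levels, wild-type animals 1 (0.0526 CPM) and 14 (0.145 CPM) lay within the mutant range of 0.0293 to 0.171 CPM. Trem2 gave 18, 1, 1, 0, 6 and 2 reads in wild types and 1, 0, 2, 0 and 0 reads in mutants. Tmem119 gave 28 reads in 6 wild-type and 9 in 5 mutant libraries, and C1qa 26 and 10. P2ry12 gave 202 and 135 reads, Csf1r 126 and 115, C1qb 105 and 65, and Ctss 76 and 74.

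Within IP no microglia gene was called between the genotypes. The 5 members that passed the filter on low counts (Cx3cr1, P2ry12, C1qb, Csf1r and Ctss) gave 0 calls, against 0.0553% of all genes, 8 of 14456 (edgeR adjusted p below 0.05). Cx3cr1 had a log2 fold change of mutant over wild type of -2.84 ± 0.89 (SE; edgeR adjusted p = 0.427). It did not pass the filter when wild-type animal 1, 4, 12, 13 or 14 was left out, and 69 of its 147 wild-type reads came from animal 13. Only those wild-type libraries reached the filter's level and no mutant library did, so for Cx3cr1 the filter fixed this direction. P2ry12 was at 0.15 ± 0.47, C1qb at -0.17 ± 0.69, Csf1r at 0.14 ± 0.55 and Ctss at 0.42 ± 0.66. Without animals 1, 3, 9 and 12, P2ry12 (-0.30) and Csf1r (-0.35) turned negative, and Ctss came to -0.0022. In the authors' deposited table, which gives wild type over mutant, Cx3cr1 had a log2 fold change of 2.89 (p = 0.00997) and C1qc of 2.04 (p = 0.0453), and no member had an adjusted p in IP.

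The change from input to IP was compared between genotypes, and no member passed correction. The difference, mutant minus wild type in log2, was -2.73 ± 0.78 for Cx3cr1, -2.69 ± 0.89 for Trem2 and -1.70 ± 0.65 for C1qc (SE), the 3 of 9 members with an unadjusted p under 0.05. Trem2 and C1qc entered this fit only through their input counts and did not pass the filter in IP, where the mutants gave 3 and 12 reads. Cx3cr1 passed the filter in IP through wild-type libraries only, and the mutants gave 14 reads. For all 3 genes the low mutant values in IP are thus tied to how the genes were selected. The edgeR adjusted p was 1 for each. Of 17311 genes 0 passed, and 710 had an unadjusted p under 0.05. DESeq2 called 5 genes, none of them a member, and gave Cx3cr1 an adjusted p of 0.123, the lowest of any member over the alternatives, which ran up to 1. In pooled shares Cx3cr1 stood at 5.77% (4.88 to 6.78%) in wild types and 0.869% (0.475 to 1.46%) in mutants. Without wild-type animal 13 the wild-type share was 4.08% (3.22 to 5.09%). Same-animal wild-type shares of Cx3cr1 ran from 0.297 to 11.2%, a spread between animals that the interval does not cover. Trem2 stood at 4.22% (2.80 to 6.10%) and 0.479% (0.0988 to 1.40%), and C1qc at 2.26% (1.71 to 2.93%) and 0.826% (0.427 to 1.44%). Without wild-type animal 1, which gave 18 of the 28 wild-type Trem2 reads, the wild-type Trem2 share was 2.37% (1.14 to 4.36%), and that of C1qc was 3.41% (2.54 to 4.47%). Without mutant 9 the mutant Trem2 share was 0.190% (0.00482 to 1.06%). These pooled values weigh deep libraries more. Medians of the same-animal shares, wild type then mutant, were 5.26% and 0.727% for Cx3cr1, 2.63% and 0% for Trem2, and 3.74% and 1.01% for C1qc. The difference between genotypes in log2 was negative for 7 of the 9 members. It was negative for 8 of the 16 other microglia markers and for 8620 of all 17311 genes. Of the 11 tested ligands, adaptors and regulators of CSF1R and TREM2 it was negative for 2. Of these lists, 14 of the 16 markers and 5 of the 11 partners passed the filter only through input. Tmem119 and C1qa, among the 7 members with a negative difference, also entered this fit only through input. Cx3cr1, Trem2 and C1qc, also among the 7, carry the limit given above. Over the 11 IP libraries the members' sum had r = 0.73 with the summed astrocyte markers (0.647 without Slc4a4) and -0.206 with the oligodendrocyte markers, and their part in these values was not tested.

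**Figure D3:**
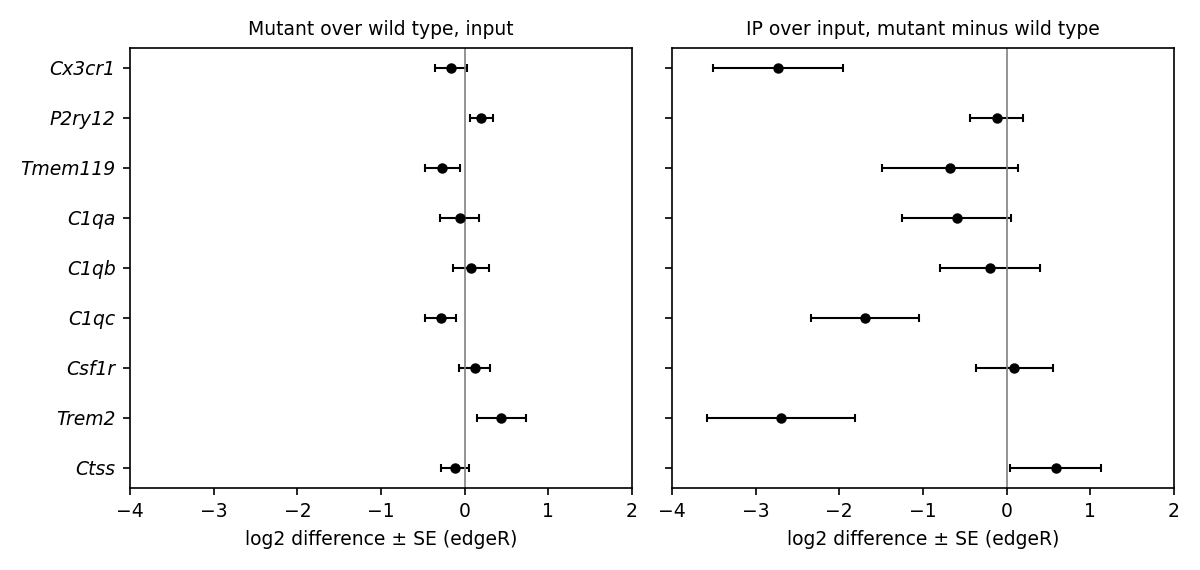
Log2 fold change of mutant over wild type in input, and difference between genotypes in the log2 change from input to IP, for each microglia gene; points are edgeR estimates and bars are ± SE. Input values lie near 0, and Cx3cr1, Trem2 and C1qc have the lowest differences. None of these genes passed the filter through mutant IP libraries.

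Of 16 other microglia markers, 15 were called lower in the pulldown in wild types and 15 in mutants. Only Gpr34 and Sall1 also passed the filter in IP, and both fell; the other 14 passed only through input, where a fall was the only possible outcome. Sall1, a transcription factor of microglial identity, changed by -3.45 ± 0.20 in wild types, Gpr34, a lysophosphatidylserine receptor, by -5.06 ± 0.37, and Fcrls by -7.60 ± 0.63 (log2, SE). Tyrobp, the adaptor of TREM2, changed by -5.68 ± 0.48 in wild types and -6.41 ± 0.55 in mutants. The exception was Lag3, at -1.17 ± 0.84 and -2.15 ± 0.93, named after its values were seen. In input none of the 16 was called between genotypes; Fcgr3 had the lowest p (log2 fold change -0.92 ± 0.25, edgeR adjusted p = 0.423).

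Cx3cl1 and Il34, ligands of the receptors, were higher in IP, while Csf1 fell. Cx3cl1, the fractalkine ligand of CX3CR1, was higher in IP than in input, by 0.60 ± 0.11 in wild types and 0.63 ± 0.12 in mutants (log2, SE; edgeR adjusted p = 6.45e-05 and 0.00012), from input levels of 195 and 171 CPM. Il34, a ligand of CSF1R, was higher by 0.43 ± 0.14 and 0.52 ± 0.15 (adjusted p = 0.0108 and 0.00611), from 11.2 and 10.7 CPM. Csf1, the other ligand, fell by 4.55 and 3.57 on the log2 scale. Adam10 and Adam17, proteases that shed fractalkine, were at -0.16 ± 0.10 and -0.70 ± 0.19 in wild types, where only Adam17 was called. Of the 9 fractalkine and purine signalling genes, 6 were called lower and 1 higher in wild types, and of the 6 that also passed in IP, 3 were lower and 1 higher. Nt5e, which makes adenosine, changed by -3.85 ± 0.32. P2rx7 (-4.18 ± 0.64) and P2ry6 (-4.41 ± 0.83) passed only through input.

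For CSF1R and TREM2, 9 of 11 tested ligands, adaptors and regulators were called lower and 1, Il34, was called higher, in each genotype. Of the 6 that also passed in IP, 4 were lower and 1 higher. Spi1 and Syk passed only through input. Spi1, the gene of PU.1, was at -6.92 ± 0.81 in wild types and -4.63 ± 0.74 in mutants. Syk, the kinase downstream of TREM2, was at -4.52 ± 0.83 and -3.28 ± 0.84. Around C1q, 13 of 16 partners were tested, with 5 called lower and 1 higher in wild types, and 6 lower in mutants. Of the 10 that also passed in IP, 3 were lower and 1 higher in wild types, and 5 lower in mutants. C4b and Itgb2 passed only through input. C4b, a component cleaved downstream of C1q, was at -5.09 ± 0.64 in wild types. Itgb2, a subunit of the complement receptor CR3, was at -4.58 ± 0.96 in wild types. Csmd1, a complement inhibitor made by neurons, was the one called higher, at 0.38 ± 0.11 (edgeR adjusted p = 0.00438). C3 was at 0.13 ± 1.11, and C1ra and C1s1 did not pass the filter.

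Of 13 cathepsin, legumain and cystatin genes, 11 were called lower in wild types and 12 in mutants, and of the 10 that also passed in IP, 8 and 9. Cst3, the secreted inhibitor of cysteine proteases such as cathepsin S, was at -3.71 ± 0.18 and -3.72 ± 0.20. Ctsd was at -1.50 ± 0.13 in wild types, Ctso at -3.74 ± 0.40 and Ctsh, which passed only through input, at -4.04 ± 0.55. Of 15 microglial activation genes, 8 were tested and 4 called lower in each genotype. Of the 5 that also passed in IP only Axl was called lower, at -4.35 ± 0.38 in wild types, and Spp1, which passed only through input, was at -5.40 ± 1.03. Cd68, a lysosomal macrophage protein named after its values were seen, was not called, at -0.35 ± 0.26 and -0.10 ± 0.28. Among border macrophage and monocyte markers, 4 of 10 were tested and 1 was called lower in wild types, and of the 2 that also passed in IP none was lower. Cd163, also named after its values were seen, was called higher in mutants (0.71 ± 0.22, edgeR adjusted p = 0.00948).

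Lists of other cell types give the scale of depletion. All genes of the oligodendrocyte, astrocyte, indirect-pathway neuron and D1 neuron lists also passed the filter in IP. Oligodendrocyte markers were called lower in 10 of 10, with medians of -5.09 in wild types and -4.81 in mutants, and precursor markers in 7 of 7 (-4.95 and -4.87), of which 3 also passed the filter in IP. Astrocyte markers were called lower in 9 of 10 in each genotype, with medians of -3.58 and -3.51; Aqp4 was at -3.51 ± 0.19 and Slc1a3 at -3.94 ± 0.20 in wild types, and Slc4a4, named after its values were seen, was called higher at 0.44 ± 0.08. Endothelial markers were called lower in 6 of 8 in wild types and 4 of 8 in mutants, mural and fibroblast markers in 6 and 5 of 8, and red blood cell markers in 5 of 5; 4, 2 and 3 genes of these lists also passed in IP. The indirect-pathway neuron markers fell in 5 of 5 (-4.01 and -3.74), and D1 neuron markers were higher in 6 of 6 (1.33 and 1.70). The microglia genes' medians were -5.12 in wild types and -5.72 in mutants, but 4 of the 9 passed the filter only through input. The 5 that also passed in IP ran from -6.03 to -4.01 in wild types and from -6.75 to -5.02 in mutants. The mutant value of -6.75 is that of Cx3cr1, which passed in IP through wild-type libraries only. Without Cx3cr1 the mutant range was -5.44 (Ctss) to -5.02 (Csf1r). These lists are set side by side, with no test of the difference. Summed over the list, astrocyte markers in IP stood at 505 to 671 CPM in wild types and 387 to 771 CPM in mutants. Slc4a4 made up 315 and 295 CPM of these on average, and the other 9 markers summed to 179 to 342 CPM and 132 to 454 CPM. The microglia genes stood at 2.79 to 4.80 and 1.35 to 4.75 CPM. In input the astrocyte markers already stood far higher, at 2299 to 3213 CPM in wild types and 2182 to 3320 CPM in mutants. Input sums of the microglia genes were 88.9 to 154 CPM and 106 to 162 CPM.

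**Figure D4:**
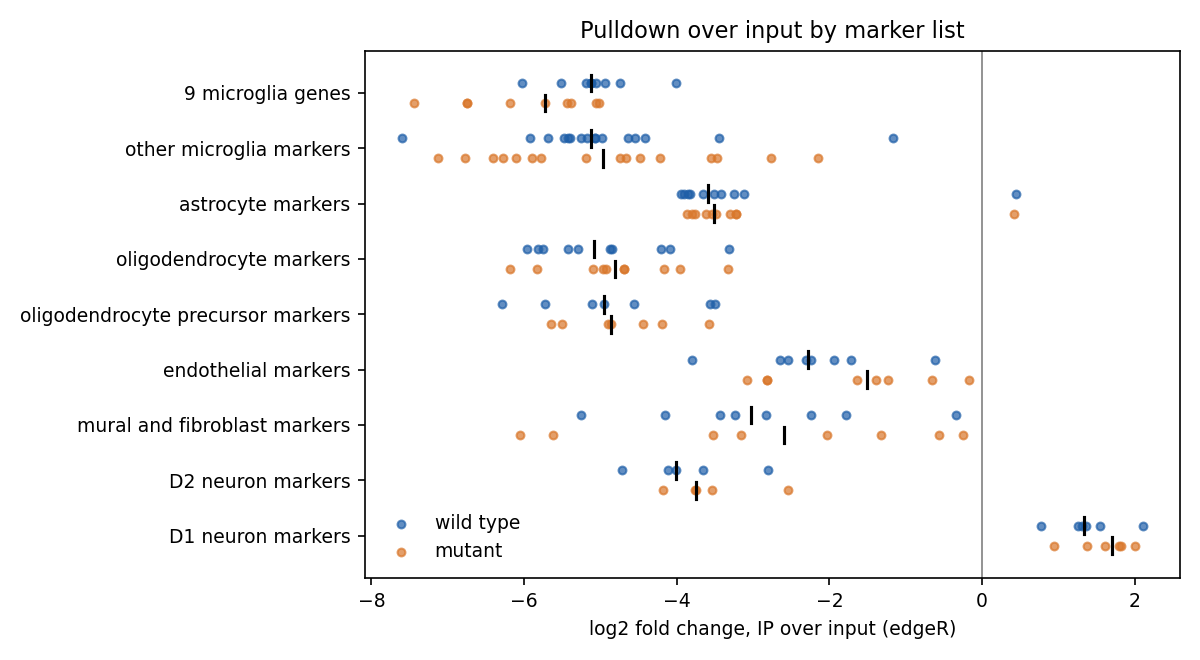
Log2 fold change of IP over input for each gene of the microglia, other microglia and comparison marker lists; each point is 1 gene and bars are list medians. Microglia genes have a wild-type median of -5.12, with 4 of the 9 tested only through input, and D1 neuron markers are above 0.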

How the data were processed

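RNA from striatum of 6 wild-type and 5 mutant animals was sequenced as input and IP libraries, 22 in all; per the labels the kit does not keep strand. The submitters' processing notes name STAR, featureCounts, DESeq2 and build mm10, with no version. The authors deposited raw read counts for 55341 genes, and tables of their own genotype comparisons holding log2 values and p-values. From the counts, CPM was computed with TMM scaling over 22 libraries. Genotype was tested within each assay, and IP against input and the interaction over all libraries, with edgeR 4.0.16 (R 4.3.3, limma 3.58.1) robust quasi-likelihood tests after filterByExpr; p-values were adjusted by Benjamini-Hochberg across every gene in a fit and called at 0.05; scripts were tested on simulated data. Correlations used log2 CPM with a prior count of 2. Intervals and the floor of 3 reads cover counting error only. IP and input of an animal share a lysate; their deviations from the group means correlated at 0.191 to 0.464 over 8629 genes in 11 animals. Alternatives were DESeq2 1.42.0, other filters, the animal as a block, and leaving out animals; pooled shares without each animal, the astrocyte sum without Slc4a4 and the counts of list genes that also passed the filter in IP were added after seeing the data. Named genes were all members, the 2 to 4 of each list with the smallest p, and ligands or partners of members; some genes that this rule picks are not reported here. The members and the other lists (17 lists in all) were chosen with earlier results of these data known. Replicates are separate animals as labelled.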

Additional observations from a re-analysis of the deposited data

Results flagged for a closer look

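Within a group, 3 of 36 sets of member values had 1 library flagged by the ratio of its gap to the range. Chance gives about 1 in 20 for normally distributed values, which counts of a few reads are not. Tmem119 in wild-type IP was 0.452 CPM in animal 12, from 5 reads, with the next at 0.169 CPM. C1qb in mutant input was 30.0 CPM in animal 11, from 1031 reads, with the next at 17.8 CPM. Trem2 in mutant IP was 0.0732 CPM in animal 9, from 2 reads, with the next at 0.0173 CPM.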

How the results depend on the processing

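In IP against input, 9 of 9 members stayed called lower in each genotype under all 19 settings, the animal as a replicate block included. For Tmem119, C1qa, C1qc and Trem2, which passed the main filter only through input, that direction was fixed by the filter. The same holds for Cx3cr1 in mutants, since no mutant IP library reached the filter's level for it. No member was called in either genotype comparison or the interaction under any setting run. Over all genes, DESeq2 called 28 genes between genotypes in input against 3, no filter gave 5, leaving out animals 1, 3, 9 and 12 gave 7, and leaving out each animal in turn gave 2 to 7. In IP DESeq2 called 75 against 8, and leaving out each animal gave 4 to 8. For the interaction DESeq2 called 5, and leaving out each animal gave 0 to 2; the cause was not tested. Without animals 1, 3, 9 and 12 the log2 changes turned for P2ry12 (-0.30), Csf1r (-0.35) and Ctss (-0.0022) in IP, and for Csf1r (-0.63) and Tmem119 (0.22) in the interaction. Leaving out each animal gave ranges across 0 in input for C1qa (-0.16 to 0.027), C1qb (-0.16 to 0.20) and Cx3cr1 (-0.24 to 0.026). In IP it did so for C1qb (-0.52 to 0.15), Csf1r (-0.073 to 0.36) and P2ry12 (-0.070 to 0.31), and in the interaction for C1qb (-0.66 to 0.22), Csf1r (-0.18 to 0.37) and P2ry12 (-0.39 to 0.12). With the animal as a block, 9 members were called lower in each genotype and 0 in the interaction, so no member's call changed. With a filter of 1 CPM in 5 libraries, Csf1r was the only member tested in IP. Depth limits IP most: 30 to 295 member reads per library.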
